A study of Mus musculus with 25 samples.

Results

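The effect of a high-fat diet (HFD) on the liver was examined as the difference between 6 livers of Rosa26KO mice on HFD and 6 livers of Rosa26KO mice on control diet. These are 12 of the 25 liver libraries of the study, and all 14133 genes with enough reads were tested, with differences given as HFD over control diet. The other 13 libraries come from p53KO mice, 6 on control diet and 7 on HFD, and are used here to set the spread and, at the end, for comparison. All mice were male C57BL6/J aged 24 months, which is old age for a laboratory mouse. Rosa26 is a locus commonly chosen as a neutral target for genetic modification, and the labels set this genotype against p53KO. The labels give neither how the knockouts were made, nor whether they cover all liver cells, nor the composition and duration of either diet. Nothing in the labels says that animals were pooled, nor that libraries come from separate animals, so that p-values measure only the spread between libraries, pooled over the 4 groups, which may be technical in part.

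The liver makes fatty acids and cholesterol from acetyl-CoA when dietary carbohydrate is plentiful and sterols are scarce, and it stores surplus fatty acids as triglyceride in lipid droplets. Synthesis is driven by the transcription factors SREBP1 and SREBP2, whose release from the endoplasmic reticulum needs the escort protein SCAP, and by ChREBP, which responds to glucose. Dietary fat and cholesterol are known to hold this synthesis down, while fatty acids act on the receptors PPARA and PPARG, which switch on genes of fatty acid oxidation and of droplet storage.

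Total counts ran from 16324283 to 21328209 per library. Trp53, which encodes p53, was at 31.6 to 43.7 CPM (read counts scaled to library size) with a median of 35.7 on control diet and at 30.6 to 43.8 CPM with a median of 37.2 on HFD, so that both diets had the transcript at overlapping levels (two-sided exact permutation test, unadjusted p = 0.898). The summed level of 10 hepatocyte markers was 119912 to 183577 CPM on control diet (median 160900) and 76746 to 199293 CPM on HFD (median 107326). No marker was at 0 in all 12 libraries. Of the 10 markers, 9 had a log2 fold change below 0 and 1 above, with a median of -0.43. Their smallest adjusted p was 0.158 in edgeR's quasi-likelihood test. Whether the lower HFD median bears on the falls given below was not tested. On the first principal component of the 1000 most variable genes, which held 39.8% of the variance, 5 control libraries lay between -37.2 and -16.3 and the 6 HFD libraries between 8.74 and 23.9. Control_Rosa26KO 2 lay at 15.2, among the HFD libraries. HFD_Rosa26KO 6 stood apart on the next component, at -37.9, where the other 11 libraries lay between -21.3 and 19.5. Both were kept. Named calls that are lost without either are given with the value, except Acly, for which only the loss is given.

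**Figure D1:**
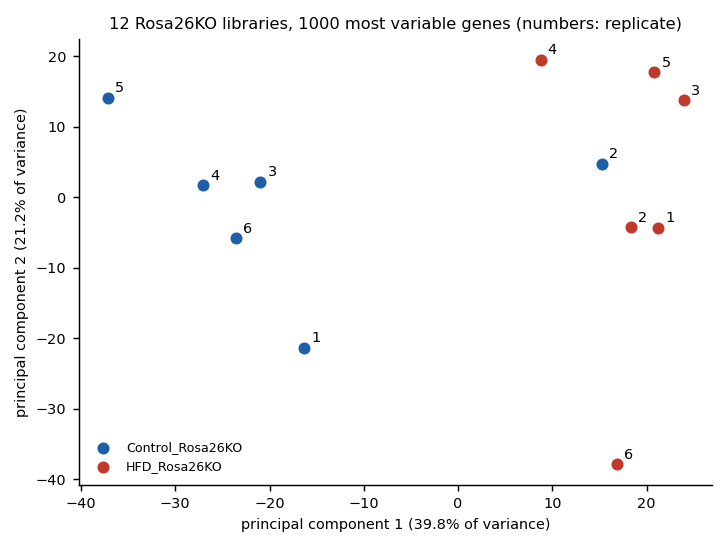
Principal components 1 and 2 of the 12 Rosa26KO libraries, from log2 CPM of the 1000 most variable genes, with 1 point per library numbered by replicate (blue, control diet; red, HFD). Component 1 separates the diets except for Control_Rosa26KO 2 at 15.2, and HFD_Rosa26KO 6 lies alone at -37.9 on component 2.

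HFD changed 213 of 14133 genes (1.51%) at an adjusted p below 0.05 in edgeR's quasi-likelihood test, with Benjamini-Hochberg adjustment over all genes tested. Of these, 63 rose (0.446%) and 150 fell (1.06%), against 2467 genes at an unadjusted p below 0.05. The median log2 fold change was 0.90 among the rises and -0.81 among the falls, and the range was -4.28 to 5.54. At least a 2-fold difference was seen for 29 rises and 54 falls. Of all genes tested, 7146 had a log2 fold change above 0 and 6987 below 0. These numbers and the 1.51% called are the background for each gene list below. The libraries of the 2 diets did not overlap for 141 of the called genes (41 rises, 100 falls), and for 425 of all genes tested (3.01%; 1.2% higher and 1.81% lower). The library names are an unbroken series of numbers. It was cut here by replicate number into 3 runs, each with 2 Rosa26KO libraries of either diet. The names do not mark these cuts, and the labels were not found to name them as batches. All 213 genes kept their direction within every run, as did 44.4% of all genes. The 213 were called from these same libraries, so this agreement is not a separate test of them. With run 1, 2 or 3 left out, 92, 5 and 19 genes passed. The number of calls depended on single libraries: it was 509 without Control_Rosa26KO 2 (210 of the 213 among them), 230 without HFD_Rosa26KO 6 (160 of the 213), and 93 to 120 without any one of Control_Rosa26KO 1, 4 or 5 or HFD_Rosa26KO 1, 2, 3 or 5. A core of 71 genes (17 higher, 54 lower) passed with every single library left out in turn.

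**Figure D2:**
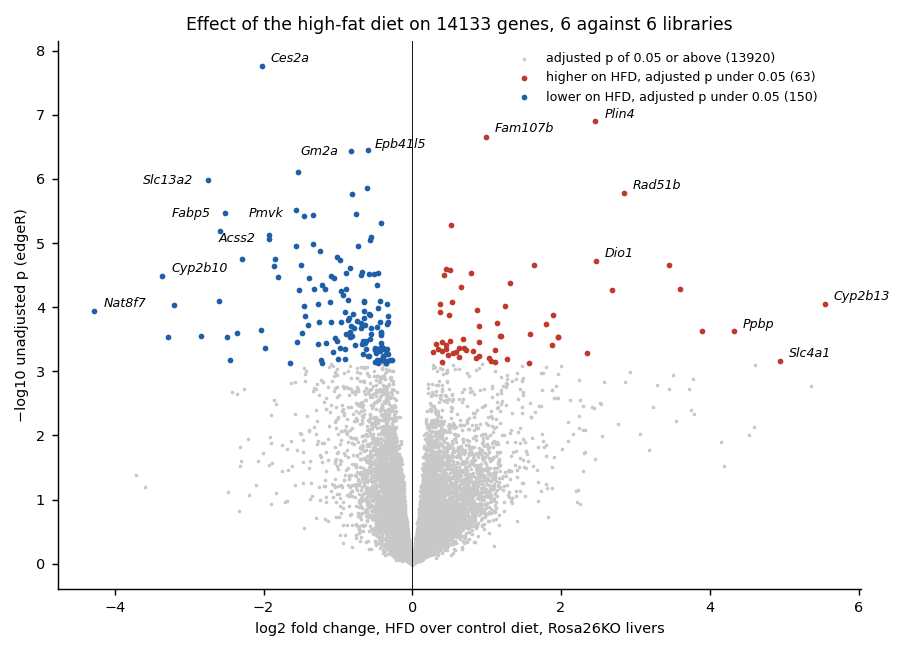
Log2 fold change (HFD over control diet, x axis) against -log10 of the unadjusted p (y axis) for 14133 genes, 1 point per gene, with genes past an adjusted p of 0.05 in red (63 higher) and blue (150 lower). Ces2a has the smallest p of all, Plin4 the smallest among rises, and Cyp2b13 and Nat8f7 lie at the ends of the range of called genes.

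The strongest rise by p-value was in Plin4, which encodes perilipin 4, a coat protein of lipid droplets (GRCm38, chromosome 17, 56100591 to 56109803, minus strand; its exons overlap exons of Hdgfl2 on the other strand). Plin4 was at 7.85 to 20.4 CPM on control diet (median 15.6) and at 44.5 to 114.5 CPM on HFD (median 87.3). Every HFD library was above every control library, and the lowest HFD value belonged to HFD_Rosa26KO 6. The level was 5.50-fold higher on HFD (log2 fold change 2.46 ± 0.33 SE, adjusted p = 0.000897; exact permutation p = 0.00216, the smallest possible here). The adjusted p reached at most 0.00411 when single libraries were left out.

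Plin4 was the 1 gene of 19 tested in the list of lipid droplet coat and CIDE genes that passed, and the median of that list was 0.10 against 0.003 for all genes. Plin2, the most abundant droplet coat of hepatocytes, was at 341.6 to 628.9 CPM on control diet (median 449.8) and at 351.5 to 847.7 CPM on HFD (median 767.5), a log2 fold change of 0.57 ± 0.22 SE that did not pass (adjusted p = 0.194). Pparg, the fat-storage receptor, was at 12.8 to 20.05 CPM (median 16.8) and 13.9 to 35.8 CPM (median 34.7). Its log2 fold change of 0.89 ± 0.24 SE missed the threshold (adjusted p = 0.0529). Cd36, which takes up fatty acids, was at 67.5 to 150.7 CPM (median 113.3) and 112.1 to 299.2 CPM (median 277.1), with a log2 fold change of 1.19 ± 0.35 SE (adjusted p = 0.0717). For Plin2, Pparg and Cd36 the same library, HFD_Rosa26KO 6, was far below the other 5 on HFD. Without it Pparg (log2 fold change 1.04, adjusted p = 0.0128) and Cd36 (1.35, 0.0452) passed and Plin2 did not (0.70, 0.0780). Pparg also passed without Control_Rosa26KO 2 (adjusted p = 0.0397), where Cd36 did not (0.0677).

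Fabp5 went the other way. It encodes a fatty acid carrier found in macrophages and epithelia as well as in hepatocytes (chromosome 3, 10012548 to 10016607, plus strand), and it was at 28.4 to 236.3 CPM on control diet (median 127.3) and 10.2 to 35.6 CPM on HFD (median 18.3). The groups overlapped through Control_Rosa26KO 2, which held the lowest control value, 28.4 CPM. Fabp5 fell 5.71-fold (log2 fold change -2.51 ± 0.42 SE, adjusted p = 0.00354) and passed with every library left out. It was the single called member of 19 tested in the list of PPARG and fatty acid uptake genes (median 0.06) and of 20 tested among markers of lipid-associated and recruited macrophages. The summed level of those macrophage markers was 891.5 to 1539 CPM on control diet and 1162 to 1717 CPM on HFD, and 18 of the 20 had a log2 fold change above 0. In whole liver, fewer cells of a type and less RNA per cell cannot be told apart.

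**Figure D3:**
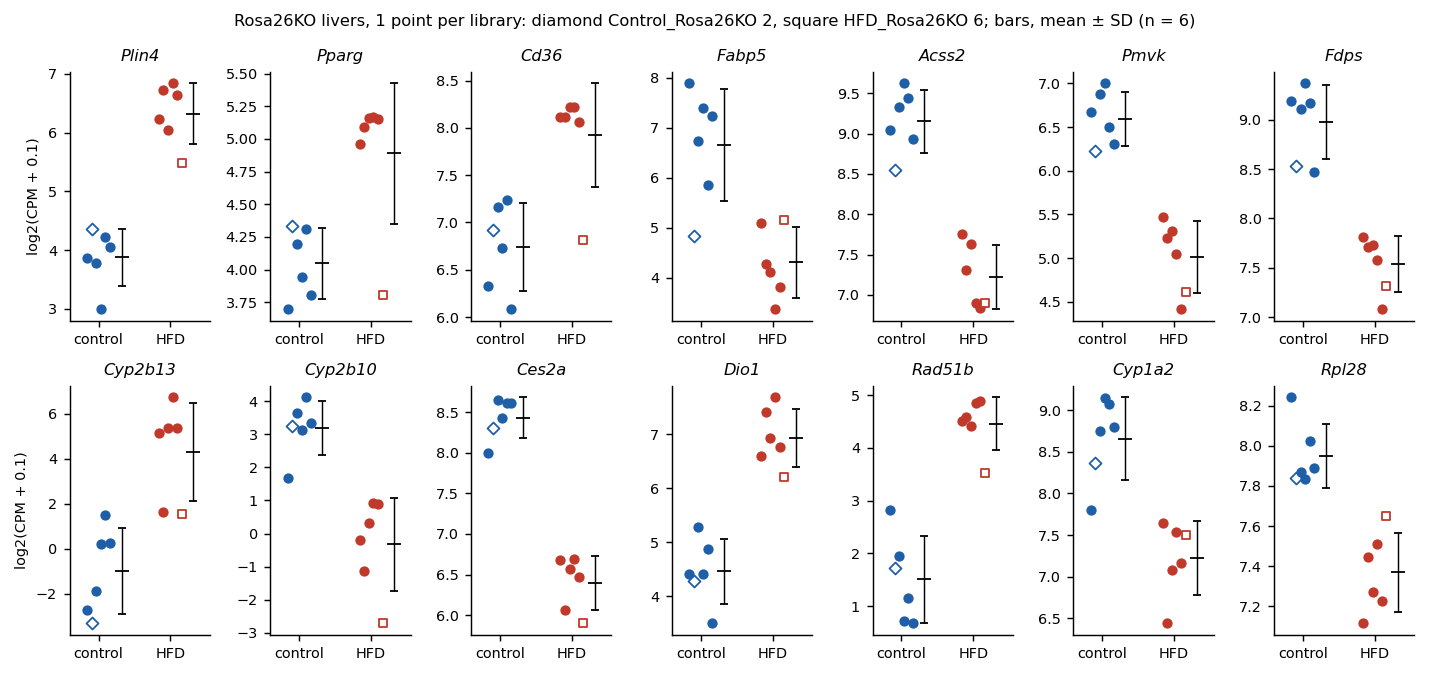
Log2(CPM + 0.1) of 14 genes in each of the 12 Rosa26KO libraries (blue, control diet; red, HFD), with the mean and SD of 6 libraries as bars beside the points. The open diamond is Control_Rosa26KO 2 and the open square HFD_Rosa26KO 6; for Pparg and Cd36 the square lies among the controls, and for Fabp5 the diamond lies among the HFD libraries.

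Among genes of fatty acid synthesis, 5 of 22 tested fell on HFD (3 without HFD_Rosa26KO 6) and 0 rose, and 21 had a log2 fold change below 0, with a median of -0.67. The called share was 22.7%, against 1.51% of all genes. Acss2, which makes acetyl-CoA from acetate, was at 375.0 to 789.5 CPM on control diet (median 585.4) and 114.4 to 215.5 CPM on HFD (median 139.0). No HFD library reached the lowest control, and the level was 3.80-fold lower (log2 fold change -1.93 ± 0.34 SE, adjusted p = 0.00579, at most 0.0200 with any library left out). Acss2 lies at chromosome 2, 155517948 to 155585724, plus strand, and its exons overlap those of Acss2os, Gss and Ggt7 on the other strand. Whether the counting used strand is not given in the sources used here. Acss2os fell like Acss2 (log2 fold change -1.85 ± 0.35 SE, adjusted p = 0.00855), whereas Gss, the last enzyme of glutathione synthesis, rose from a median of 60.8 to 109.7 CPM (0.79 ± 0.15 SE, adjusted p = 0.00962).

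Acacb, the acetyl-CoA carboxylase whose malonyl-CoA restrains mitochondrial fatty acid import, was at 236.2 to 447.5 CPM on control diet (median 264.9) and 68.5 to 161.6 CPM on HFD (median 107.1), 2.64-fold lower (log2 fold change -1.40 ± 0.32 SE, adjusted p = 0.0257). Mlxipl, which encodes ChREBP, had medians of 547.8 and 272.6 CPM (-0.97 ± 0.24 SE, adjusted p = 0.0388), and Slc25a1, the mitochondrial citrate exporter, medians of 334.0 and 226.0 CPM (-0.63 ± 0.15 SE, adjusted p = 0.0348). Acly, which cleaves exported citrate to acetyl-CoA, was the last of the 5 and is named after its values were seen (955.5 ± 318.4 against 411.3 ± 126.6 CPM, SD, n = 6 each; log2 fold change -1.22, adjusted p = 0.0494). Without HFD_Rosa26KO 6 the 3 members of the list that passed were Acss2, Acacb and Mlxipl, so that Acly was lost. With single libraries left out, Acacb passed in 8 of 12 fits (adjusted p of 0.0675 without Control_Rosa26KO 4), Mlxipl in 3 (0.0874 without HFD_Rosa26KO 1) and Slc25a1 in 3 (0.0963 without Control_Rosa26KO 5 and 0.0576 without HFD_Rosa26KO 6). The later enzymes were lower in the median but did not pass. Fasn, the fatty acid synthase, had medians of 1968 and 1039 CPM (log2 fold change -1.14 ± 0.41 SE, adjusted p = 0.157), and Scd1, the stearoyl-CoA desaturase, had no overlap between diets (15940 to 30083 CPM against 5055 to 14967 CPM) at an adjusted p of 0.165. Srebf1, which encodes SREBP1, was at 386.4 to 604.3 CPM and 312.5 to 493.7 CPM, overlapping ranges.

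All 25 genes of cholesterol synthesis and uptake had a log2 fold change below 0, with a median of -0.90, 5 of the 25 fell and 0 rose, and 12 had no overlap between diets. The called share of the list was 20%. Of all genes 1.51% were called, and 1.81% were lower without overlap. Pmvk, which phosphorylates phosphomevalonate (chromosome 3, 89454541 to 89469013, plus strand), was at 75.02 to 128.1 CPM on control diet (median 95.9) and 21.2 to 44.3 CPM on HFD (median 35.3). The groups were clear of each other, and the level was 2.96-fold lower (log2 fold change -1.56 ± 0.26 SE, adjusted p = 0.00354, at most 0.0137 with any library left out). Fdps, which makes farnesyl diphosphate, fell from a median of 564.4 to 200.3 CPM (-1.45 ± 0.31 SE, adjusted p = 0.0174, and 0.0530 without HFD_Rosa26KO 5). Tm7sf2, a sterol reductase, fell from 170.8 to 69.8 CPM (-1.25 ± 0.28 SE, adjusted p = 0.0247), and Acat2, which condenses acetyl-CoA to acetoacetyl-CoA in the cytosol, from 202.5 to 121.8 CPM (-0.83 ± 0.19 SE, adjusted p = 0.0302). For all 4 of these genes no HFD library reached the lowest control.

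Several other sterol genes had log2 fold changes of similar size and did not pass, among them Sqle (-1.16 ± 0.36 SE, adjusted p = 0.0952), Idi1 (-1.10 ± 0.34 SE, 0.0900) and Cyp51 (-0.98 ± 0.29 SE, 0.0730). Tm7sf2 passed in 7 and Acat2 in 3 of the 12 fits with a library left out (adjusted p of 0.0641 without HFD_Rosa26KO 5 and 0.0780 without Control_Rosa26KO 4). Without HFD_Rosa26KO 6 the adjusted p of Acat2 was 0.0526. The number of called members was 8 without Control_Rosa26KO 2 and 3 without HFD_Rosa26KO 6. The list's median was -0.60, -1.09 and -1.05 within the 3 runs of library names. Scap, the escort of the SREBP proteins, is outside the list and was picked after its values were seen: it was at 166.3 to 279.1 CPM on control diet and 75.1 to 132.6 CPM on HFD, without overlap (log2 fold change -1.06 ± 0.21 SE, adjusted p = 0.00982). Srebf2 itself was at 76.8 to 126.5 CPM and 66.3 to 90.6 CPM, overlapping ranges (log2 fold change -0.37 ± 0.18 SE, adjusted p = 0.282).

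Promoters of 3 of the genes that fell together are shown because a window of each holds the CCAAT box. This is the element bound by NF-Y, a known partner of SREBP at sterol genes. Each window runs from 250 bases before to 50 bases after the start of the gene, 5′ to 3′ on the gene's strand, from RefSeq on GRCm38.p6. Capitals mark CCAAT or its reverse complement ATTGG. Pmvk is at chr3:89454291-89454590 (plus strand), Tm7sf2 at chr19:6067801-6068100 (minus strand) and Acss2 at chr2:155517793-155518092 (plus strand). Pmvk also has another window, at chr3:89459321-89459620, which lacks the box and is not shown. Which start of Pmvk these livers used was not tested.
Pmvk: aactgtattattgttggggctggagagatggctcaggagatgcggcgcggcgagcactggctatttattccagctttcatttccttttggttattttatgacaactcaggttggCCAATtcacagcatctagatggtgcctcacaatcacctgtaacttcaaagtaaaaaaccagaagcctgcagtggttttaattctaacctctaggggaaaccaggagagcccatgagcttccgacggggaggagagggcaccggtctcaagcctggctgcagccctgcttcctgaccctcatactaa
Tm7sf2: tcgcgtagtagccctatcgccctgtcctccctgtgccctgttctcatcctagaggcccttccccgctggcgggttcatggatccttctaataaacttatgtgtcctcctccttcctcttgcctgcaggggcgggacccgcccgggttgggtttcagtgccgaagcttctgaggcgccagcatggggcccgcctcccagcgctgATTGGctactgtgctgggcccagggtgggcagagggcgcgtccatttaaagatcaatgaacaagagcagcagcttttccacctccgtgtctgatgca
Acss2: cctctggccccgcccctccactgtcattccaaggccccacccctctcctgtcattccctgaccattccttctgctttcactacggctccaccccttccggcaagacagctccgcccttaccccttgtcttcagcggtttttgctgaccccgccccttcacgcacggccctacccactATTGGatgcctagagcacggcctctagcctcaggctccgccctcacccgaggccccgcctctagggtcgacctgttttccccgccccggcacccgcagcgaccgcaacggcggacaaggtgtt
Windows were found for 17 of the 25 sterol genes, 20 windows in all, and 16 of these (80.0%) held CCAAT on either strand. The share was 37.4% of all 32851 windows and 40.3% of the 159 windows of genes that fell. Among fatty acid synthesis genes it was 14 of 24 windows (58.3%). The sterol regulatory element searched as TCACNCCAC was in 1.24% of all windows and in 1 sterol window, that of Hmgcs1, and the E-box CACGTG was in 7.15% of all windows and 4 of the 20 sterol windows. The windows of Acat2 and the other window of Pmvk held none of these 3 motifs. A match describes letters in the window and was not tested as a site.

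Genes of drug and steroid metabolism split. Cyp2b13, a P450 enzyme normally expressed in female mouse liver (chromosome 7, 26061497 to 26096197, plus strand), had the largest rise of all called genes. It was listed at 0 to 2.74 CPM on control diet (median 0.612) and at 2.81 to 107.3 CPM on HFD (median 38.7), with the highest control just under the lowest HFD library. The log2 fold change was 5.54 ± 1.18 SE (adjusted p = 0.0173), and Cyp2b13 passed with every library left out (at most 0.0482). In another tool, limma voom with sample quality weights (limma voom below), it did not pass (adjusted p = 0.0684). Its neighbour and close paralog Cyp2b9 had medians of 7.38 and 249.3 CPM, with 1 control above the lowest HFD library (3.55 ± 1.18 SE, adjusted p = 0.118). Reads of such near-identical genes may be split between them by the counting. Cyp2b10, the classical target of the xenobiotic receptor CAR in the same cluster, went down from 3.11 to 17.3 CPM (median 9.75) to 0.0521 to 1.79 CPM (median 0.962). Its groups were clear of each other, and it fell 10.3-fold (log2 fold change -3.36 ± 0.66 SE, adjusted p = 0.00967, at most 0.0334 with any library left out). Nr1i3, which encodes CAR, was at 35.4 to 110.9 CPM and 53.2 to 118.9 CPM, overlapping ranges.

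In the P450 family 2 list 1 of 29 tested genes rose and 3 fell, with a median of -0.38. Called members were 13.8% of this list, against 1.51% of all genes. Besides Cyp2b10, the falls were Cyp2c55 (log2 fold change -1.98 ± 0.48 SE, adjusted p = 0.0388, and 0.0772 without HFD_Rosa26KO 2) and Cyp2r1, a vitamin D 25-hydroxylase (-0.63 ± 0.15 SE, adjusted p = 0.0354, and 0.0913 without Control_Rosa26KO 5). Cyp2c55 was also lost without Control_Rosa26KO 2, its highest library (log2 fold change -1.41, adjusted p = 0.0655), and both were lost without HFD_Rosa26KO 6 (0.0621 for Cyp2c55 and 0.0540 for Cyp2r1). In families 1, 3 and 4, 2 of 25 fell (8%) and 0 rose. Cyp1a2, which metabolises caffeine and arylamines, was at 223.5 to 564.1 CPM on control diet (median 437.5) and 86.7 to 200.4 CPM on HFD (median 162.2), with no overlap, 2.71-fold lower (-1.44 ± 0.32 SE, adjusted p = 0.0219, and 0.0584 without Control_Rosa26KO 4). Cyp4a12b, a male-biased fatty acid hydroxylase, had medians of 115.7 and 18.4 CPM (-2.36 ± 0.55 SE, adjusted p = 0.0303, and 0.0750 without HFD_Rosa26KO 3). Its paralog Cyp4a12a had medians of 219.7 and 40.9 CPM but did not pass (-1.90 ± 0.61 SE, adjusted p = 0.107). Srd5a1, a steroid 5-alpha-reductase picked after its values were seen, had medians of 104.4 and 54.5 CPM (adjusted p = 0.0477, 0.117 without Control_Rosa26KO 5 and 0.0756 without HFD_Rosa26KO 6). Of 12 fits with a library left out, Cyp2c55 and Cyp2r1 passed in 3 each, Cyp1a2 and Cyp4a12b in 7 each and Srd5a1 in 2. In the list of growth hormone dependent and sex-biased liver genes, 1 of 29 passed, which was Cyp2b13, and the median was -0.39; 4 passed without Control_Rosa26KO 2 and 2 without HFD_Rosa26KO 6.

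Ces2a had the smallest p-value of all genes. It encodes a carboxylesterase that cleaves ester drugs and acylglycerols (chromosome 8, 104734003 to 104741634, plus strand), and it was at 255.1 to 402.0 CPM on control diet (median 366.8) and 59.5 to 103.6 CPM on HFD (median 91.6). The groups were far apart, with the highest HFD value well below the lowest control. Ces2a fell 4.07-fold (log2 fold change -2.03 ± 0.24 SE, adjusted p = 0.000242, at most 0.00192 with any library left out). It was the 1 called member of 13 carboxylesterases tested, of which 11 were below 0 with a median of -0.32. Among 33 phase II and NRF2 genes 1 passed, a share (3.03%) near that of all genes (1.51%). It was Gstm6, a glutathione transferase (medians of 143.8 and 82.2 CPM, -0.94 ± 0.19 SE, adjusted p = 0.0144), and 3 passed without either Control_Rosa26KO 2 or HFD_Rosa26KO 6.

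The Nat8 family, acetyltransferases of the endoplasmic reticulum clustered on chromosome 6, held several of the largest falls. Nat8f7 had the lowest log2 fold change of all called genes (-4.28 ± 0.93 SE, adjusted p = 0.0198), from 0.161 to 6.89 CPM (median 3.29) to 0.0596 to 0.260 CPM (median 0.153). The groups overlapped at the lowest control, and it passed in 8 of 12 fits with a library left out (0.0534 without HFD_Rosa26KO 5). Nat8f5 fell from a median of 9.97 to 1.497 CPM (-2.59 ± 0.45 SE, adjusted p = 0.00514) and passed in all 12. Its exons overlap those of Nat8f6 on the same strand, which fell as well (-3.21 ± 0.68 SE, adjusted p = 0.0173, and 0.0520 without HFD_Rosa26KO 3). The most abundant member of this cluster among those examined, Nat8f2, was at 1001 to 2008 CPM on control diet and 1092 to 1571 CPM on HFD, overlapping ranges (exact permutation p = 1). Nat8f6 and Nat8f2 were picked after their values were seen.

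Other genes with clear separation came from varied functions. Dio1, the deiodinase that activates thyroid hormone in liver (chromosome 4, 107291465 to 107307169, minus strand), rose 5.51-fold from 11.2 to 38.7 CPM (median 21.1) to 73.5 to 205.5 CPM (median 115.1), with an adjusted p of 0.00855. Rad51b, a gene of DNA repair by recombination (chromosome 12, 79297282 to 79814690, plus strand), rose 7.17-fold from 1.49 to 6.96 CPM (median 2.67) to 11.4 to 29.6 CPM (median 23.4), with an adjusted p of 0.00242. Both were without overlap, and both passed with every library left out. Fam107b rose from a median of 58.6 to 119.8 CPM (log2 fold change 0.99 ± 0.14 SE, adjusted p = 0.00104), and Rab30, a small GTPase of the Golgi, from 2.84 to 6.53 CPM (1.31 ± 0.26 SE, adjusted p = 0.0116). Smaller rises with tight groups were those of Dusp3, a protein phosphatase (0.53 ± 0.09 SE, adjusted p = 0.00441), Nras, the small GTPase (0.50 ± 0.10 SE, 0.00962), Ivns1abp (0.45 ± 0.09 SE, 0.00962) and Tulp4 (0.43 ± 0.08 SE, 0.00962). In each of these the lowest HFD library was above the highest control.

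Transporter genes moved in both directions. Abcb4, which exports phosphatidylcholine into bile, rose from a median of 199.6 to 304.0 CPM (log2 fold change 0.70 ± 0.17 SE, adjusted p = 0.0388, and 0.0966 without Control_Rosa26KO 4), and was the 1 called member of 22 genes of cholesterol efflux and bile acids. Cyp7a1, the rate-limiting enzyme of bile acid synthesis, had medians of 84.3 and 49.97 CPM and did not pass (-0.90 ± 0.31 SE, adjusted p = 0.136). Slc22a5, the carnitine transporter, rose from 13.4 to 20.3 CPM (0.54 ± 0.11 SE, adjusted p = 0.0168, and 0.0518 without Control_Rosa26KO 4). Slc13a2, a dicarboxylate and citrate carrier, fell from 1.34 to 3.53 CPM (median 2.56) to 0.179 to 0.729 CPM (median 0.323), without overlap (-2.75 ± 0.42 SE, adjusted p = 0.00211). Its exons overlap Slc13a2os on the other strand, so that reads of the pair cannot be told apart where strand was not used. Slc22a5 was picked after its values were seen. With single libraries left out, Abcb4 passed in 3 and Slc22a5 in 11 of 12 fits.

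Falls outside metabolism included Gm2a, the lysosomal ganglioside activator, from a median of 247.3 to 125.3 CPM (log2 fold change -0.82 ± 0.12 SE, adjusted p = 0.00104). Epb41l5, a cytoskeletal linker, had medians of 39.0 and 25.3 CPM (-0.60 ± 0.09 SE, adjusted p = 0.00104). Pdzk1ip1 (-1.54 ± 0.23 SE, adjusted p = 0.00184), Cnp (-0.82 ± 0.13 SE, 0.00242) and Dact2 (-0.76 ± 0.13 SE, 0.00354) fell too, and these 5 genes passed with every library left out. Adgrf1, an adhesion G-protein-coupled receptor, fell from a median of 5.79 to 0.733 CPM (-2.60 ± 0.55 SE, adjusted p = 0.0168), without overlap. Chrna4, a nicotinic receptor subunit, had medians of 92.5 and 13.3 CPM (-2.49 ± 0.59 SE, adjusted p = 0.0317, and 0.0846 without Control_Rosa26KO 4 and 0.0531 without HFD_Rosa26KO 6; passed in 6 of 12 fits) and the C-type lectin Clec2h 5.30 and 0.795 CPM (-2.84 ± 0.67 SE, 0.0316, and 0.0781 without HFD_Rosa26KO 1). Clec2h passed in 5 of 12 fits with a library left out.

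Of the bone morphogenetic protein (BMP) pathway 3 genes that fell are given, picked after their values were seen and with no count over its other members. Bmp6, the ligand made by liver endothelial cells, was at 7.30 to 9.64 CPM on control diet and 3.002 to 5.69 CPM on HFD (log2 fold change -0.86 ± 0.18 SE, adjusted p = 0.0168). Bmp7 was at 1.82 to 3.78 and 0.729 to 1.31 CPM (-1.32 ± 0.27 SE, adjusted p = 0.0125), and Smad1, which carries the signal to the nucleus, at 22.8 to 35.0 and 15.4 to 20.8 CPM (-0.57 ± 0.10 SE, 0.00585). None of the 3 overlapped between diets, and all 3 passed with every library left out. Hamp, which encodes hepcidin, the iron hormone that this pathway controls in liver, did not pass (log2 fold change -2.08 ± 0.87 SE, adjusted p = 0.218).

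Of 83 cytosolic ribosomal protein genes tested, 10 fell and 0 rose. The log2 fold change was below 0 for 82 of them, with a median of -0.28 and a range of -0.85 to 0.02. This list was added after results had been seen. Rpl28, of the large subunit, was at 228.0 to 302.7 CPM on control diet (median 235.5) and 138.4 to 200.5 CPM on HFD (median 164.1), without overlap (-0.58 ± 0.11 SE, adjusted p = 0.00962). Rpsa and Rps24, of the small subunit, had log2 fold changes of -0.45 ± 0.12 SE and -0.39 ± 0.10 SE (adjusted p of 0.0479 and 0.0442). With single libraries left out, Rpsa passed in 3 and Rps24 in 2 of 12 fits (adjusted p of 0.119 without Control_Rosa26KO 5 and 0.110 without Control_Rosa26KO 1). The number of called members was 28 without Control_Rosa26KO 2 and 9 without HFD_Rosa26KO 6, and the list's median was -0.22, -0.27 and -0.33 within the 3 runs. Their summed level was 12165 to 16810 CPM on control diet and 10577 to 13421 CPM on HFD.

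**Figure D4:**
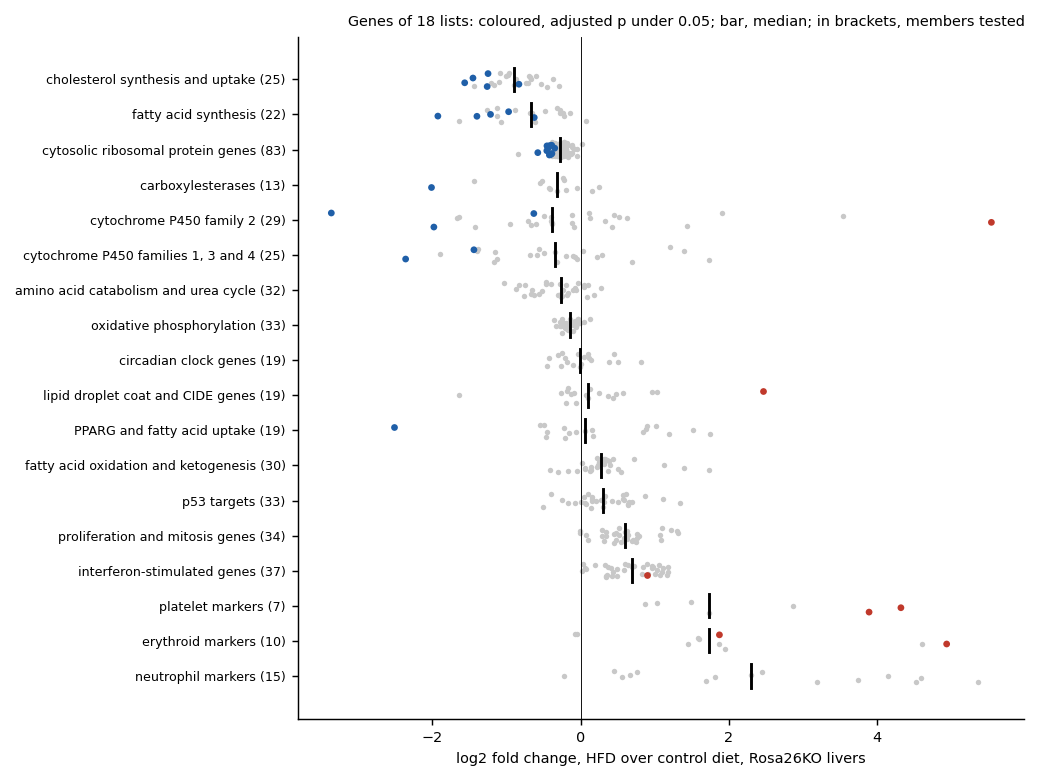
Log2 fold changes (HFD over control diet) of the tested members of 18 gene lists, 1 point per gene, with genes past an adjusted p of 0.05 in red (higher) or blue (lower), a bar at each list's median and the number tested in brackets. The 25 sterol genes all lie below 0, the 37 interferon-stimulated genes all lie above 0 with 1 called, and platelet, erythroid and neutrophil markers spread far to the right.

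Genes of blood cells rose in a few HFD libraries. Slc4a1, the anion exchanger of red cells, was at 0.0552 to 0.482 CPM on control diet and 0.238 to 30.5 CPM on HFD (log2 fold change 4.94 ± 1.26 SE, adjusted p = 0.0477). Ppbp, a platelet chemokine, was at 0.774 to 1.80 CPM and 1.19 to 130.2 CPM (4.32, adjusted p = 0.0293), and Tubb1, the platelet tubulin, at 0 to 0.401 CPM and 0.119 to 16.2 CPM (3.89 ± 0.90 SE, 0.0292). The highest value of all 3 was in HFD_Rosa26KO 6 and the next in HFD_Rosa26KO 1, and without HFD_Rosa26KO 6 none of the 3 passed (adjusted p of 0.0896, 0.187 and 0.113). Slc4a1 passed in 2 of the 12 fits with a library left out, and its adjusted p was 0.108 without Control_Rosa26KO 4 and 0.0520 without Control_Rosa26KO 2. Tfrc, the transferrin receptor, which immature red cells and hepatocytes both carry, was at 11.9 to 20.7 and 20.1 to 179.4 CPM (1.87 ± 0.45 SE, adjusted p = 0.0364, and 0.129 without HFD_Rosa26KO 1, its highest library). Of 12 fits with a library left out, Tfrc passed in 5, Ppbp in 7 and Tubb1 in 6.

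The summed level of 12 platelet markers was 12.6 to 36.5 CPM on control diet and 27.2 to 304.1 CPM on HFD, that of 13 erythroid markers 737.6 to 1383 CPM and 1002 to 8441 CPM, and that of 17 neutrophil markers 17.1 to 959.8 CPM and 119.4 to 1025 CPM. The highest neutrophil sum on control diet was that of Control_Rosa26KO 1, where the control median was 56.0 CPM. No marker in these lists was at 0 in all 12 libraries. Of the tested members, 2 of 7 platelet, 2 of 10 erythroid and 0 of 15 neutrophil markers passed, with medians of 1.73, 1.73 and 2.29. The called shares were 28.6%, 20% and 0%, against 1.51% of all genes. Without HFD_Rosa26KO 6 the medians were 0.32, 1.43 and 0.60, and 0, 1 and 0 passed. The part of blood cells in the rises of Slc4a1, Ppbp, Tubb1 and Tfrc was not tested.

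Interferon-stimulated genes were above 0 throughout, 37 of 37, with a median of 0.69, but 1 passed. That share (2.70%) was near the 1.51% of all genes, of which 7146 of 14133 were above 0. Herc6, the called member, was at 17.0 to 34.1 CPM on control diet (median 21.97) and 32.1 to 55.3 CPM on HFD (median 41.5). Its log2 fold change was 0.90 ± 0.22 SE (adjusted p = 0.0353, and 0.0916 without HFD_Rosa26KO 1). Herc6 passed in 3 of 12 fits with a library left out. The single overlap was Control_Rosa26KO 2, whose summed level over the list, 4429 CPM, was the highest control. The other 5 controls were at 1597 to 2552 CPM and the HFD libraries at 2749 to 4504 CPM. Without Control_Rosa26KO 2, 10 of the 37 passed and the median was 0.99. Proliferation and mitosis genes had the same shape: 32 of 34 were above 0 with a median of 0.59 and 0 passed, and without Control_Rosa26KO 2, the highest of all 12 libraries at 496.3 CPM in sum, 4 passed and the median was 1.10. In the acute phase list 1 of 30 passed (3.33%), the serpin Serpina3k, which fell from a median of 6247 to 2299 CPM without overlap (-1.23 ± 0.31 SE, adjusted p = 0.0477, and 0.110 without HFD_Rosa26KO 3). Serpina3k passed in 2 of 12 fits with a library left out. The list's summed level was 124209 CPM in Control_Rosa26KO 1 and 30091 to 39090 CPM in the other 5 controls. Its median log2 fold change was -0.75, -0.14 and 0.99 within the 3 runs of library names.

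Many lists held no called gene, which for lists of this size is near the 1.51% called among all genes. These were 33 p53 targets tested (28 above 0, median 0.30; 4 passed without Control_Rosa26KO 2 and 1 without HFD_Rosa26KO 6), 30 genes of fatty acid oxidation and ketogenesis (26 above 0, median 0.28), 33 of oxidative phosphorylation (31 below 0, median -0.14), 32 of amino acid catabolism and the urea cycle (26 below 0, median -0.27), 26 of gluconeogenesis and insulin signalling, 22 of triglyceride synthesis and VLDL, and 19 of the circadian clock. Markers of Kupffer cells, lymphocytes, endothelial cells, stellate cells, collagen and matrix, MHC and biliary or oncofetal cells had 0 called genes as well. Cdkn1a, the p53 target that halts the cell cycle, was at 16.2 to 88.9 CPM and 30.04 to 93.2 CPM (exact permutation p = 0.0952), and Mdm2, the p53 ubiquitin ligase, at 29.7 to 36.8 and 30.9 to 43.1 CPM (0.106), both with overlapping ranges. Gt(ROSA)26Sor, the transcript of the targeted locus, was at 4.28 to 7.41 and 5.31 to 8.03 CPM (0.0758). The stress lists had 1 fall each, Atf4 among 25 genes of the unfolded protein and integrated stress response (-0.39 ± 0.10 SE, adjusted p = 0.0477, 0.117 without Control_Rosa26KO 4 and 0.0779 without HFD_Rosa26KO 6) and the co-chaperone Bag3 among 13 heat shock genes (-0.55 ± 0.13 SE, 0.0268, and 0.0606 without Control_Rosa26KO 5). With single libraries left out, Atf4 passed in 1 and Bag3 in 7 of 12 fits.

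In p53KO livers the same diet comparison, which shares no library with that in Rosa26KO, called 405 genes (2.87%), 229 higher (1.62%) and 176 lower (1.25%). Of the 213 genes called in Rosa26KO, 71 were called there in the same direction and 0 in the opposite one, which is 33.3% of the Rosa26KO list and 17.5% of the p53KO list. They were 22 of the 63 rises and 49 of the 150 falls. Both numbers of calls, 213 and 405, rest on a spread pooled over all 25 libraries. In fits to each genotype's libraries alone the order was reversed, with 655 genes called in Rosa26KO and 107 in p53KO. The sign was shared by 202 of the 213 genes, and by 59.2% of all genes. Plin4 (log2 fold change 2.17 ± 0.32 SE), Rad51b (2.29 ± 0.43 SE), Dio1 (2.01 ± 0.44 SE), Fabp5 (-2.77 ± 0.40 SE), Ces2a (-1.45 ± 0.23 SE), Gm2a (-0.87 ± 0.11 SE), Pmvk (-1.17 ± 0.24 SE) and Acss2 (-1.34 ± 0.32 SE) passed in p53KO too. The sterol list had a median of -0.52 with 4 members lower there, and the fatty acid synthesis list -0.65 with 5 lower.

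Some genes called in Rosa26KO did not pass in p53KO and had smaller or opposite values there. Slc4a1 had a log2 fold change of 0.06 ± 1.05 SE there, Ppbp -0.63 ± 0.90 SE, Nat8f5 -0.62 ± 0.41 SE and Cyp4a12b -0.22 ± 0.50 SE. The test of the difference between genotypes passed for 0 of 14133 genes in edgeR (smallest adjusted p = 0.462), against 1221 genes (8.64%) at an unadjusted p below 0.05, and for 0 in limma voom and 5 in DESeq2. Those 5 were Mpo, Ngp and Ltf, which are neutrophil granule genes, and Rogdi and Zfp64. Of the 213 genes called in Rosa26KO, 50 (23.5%) had an unadjusted p below 0.05 in that test. The 213 were chosen by their diet effect in the Rosa26KO libraries, which that test also uses. Their share can therefore not be set against the 8.64% of all genes. Nat8f5 and Cyp4a12b were among the 50 (unadjusted p of 0.00319 and 0.00768 in edgeR), and an effect that differs between genotypes was not shown for any gene by this tool.

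**Figure D5:**
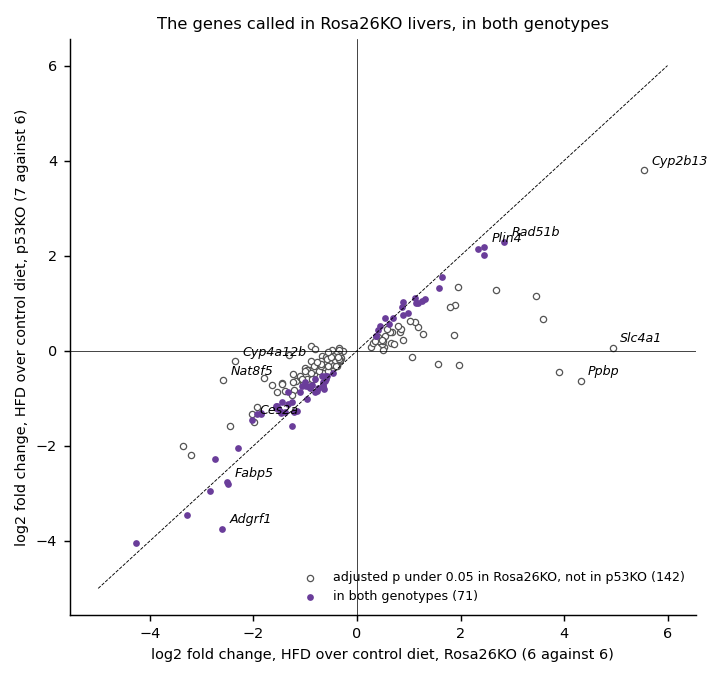
Log2 fold change of HFD over control diet in Rosa26KO livers (x axis) and in p53KO livers (y axis) for the 213 genes called in Rosa26KO, with the 71 called in both genotypes filled and equality dashed. The genes were chosen for their value on the x axis; most lie in the lower left or upper right corner region, while Slc4a1 lies near 0 and Ppbp at -0.63 on the y axis.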

How the data were processed

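Poly(A) RNA of flash-frozen liver was sequenced as paired reads of 75 bases, per the labels' protocols. The authors deposited raw read counts for 24537 gene symbols in 25 libraries, which the submitters' processing notes tie to STAR, HOMER and the mouse build GRCm38 (mm10). For versions, annotation, strand and multiply mapped reads: not given in the sources used here. Genes kept by filterByExpr (minimum count 10, total 15) were fitted in edgeR 4.0.16 with TMM scaling and robust quasi-likelihood dispersion, 1 mean per group over all 25 libraries, and p-values adjusted by Benjamini-Hochberg at 0.05. CPM are scaled to these library sizes. For single genes, a two-sided exact permutation test used log2 CPM (prior count 2), unadjusted.

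The genes compared and the lists were chosen with earlier results of these data known. Genes averaging 1 CPM or more were named if among the 10 most extreme calls in either direction by fold change or by p, with up to 4 called members per list and pathway regulators; further genes, and genes given that did not pass, were picked after their values were seen, and a few genes the rule names are not reported here. Tables of RefSeq and GENCODE M21 gave windows and positions. Alternatives were RLE scaling, no filter, non-robust dispersion, a replicate block, fits to the compared groups, DESeq2 1.42.0, limma 3.58.1 voom with sample quality weights, and libraries left out. Run terms and runs left out were added after seeing the data. The procedure was checked on simulated data. Replicates differed by more than sampling noise (chi-square per degree of freedom of at least 20.3). R 4.3.3, Python and matplotlib were used.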

Additional observations from a re-analysis of the deposited data

Results flagged for a closer look

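Among 106 named genes in 2 groups of 6 libraries, 12 of 212 gene groups held a library far from the other 5 on the log2 scale. Chance flags about 1 group in 20, and the number flagged was near that rate. HFD_Rosa26KO 6 accounted for 8 of the 12. It was low for Cd36 (112.1 CPM against 266.4 to 299.2 in the other HFD libraries), Pparg (13.9 against 31.1 to 35.8), Plin2 (351.5 against 643.1 to 847.7), Cyp3a11 (240.5 against 995.7 to 2096), Srd5a1 (36.9 against 51.2 to 56.4) and Rad51b (11.4 against 21.2 to 29.6). It was high for the neutrophil granule genes Mpo (49.8 against 0.358 to 1.81) and Ngp (109.7 against 0.834 to 4.93). Their log2 fold changes of 5.36 and 4.59 did not pass with this library and were 2.24 and 1.70 without it.

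Among controls, Control_Rosa26KO 1 was low for Srd5a1 (51.8 CPM against 96.5 to 139.6) and Cyp4a12a (54.2 against 148.9 to 267.3). Control_Rosa26KO 2 was low for Nat8f1 (66.0 against 126.7 to 170.7), and Control_Rosa26KO 5 was high for Slc25a1 (450.7 against 301.0 to 348.1).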

How the results depend on the processing

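The number of genes called in Rosa26KO (213) was 207 with RLE scaling, 219 without robust dispersion and 161 without the count filter. It was 655 in a fit to the 12 compared libraries (201 of the 213 among them) and 615 in DESeq2 (all 213). It was 3023 in limma voom with sample quality weights (209) and 442 with a term for runs of library names (212). With a replicate block it was 549 (205 of the 213), although libraries with the same number did not deviate together (correlations of -0.03 to 0.18, 1 of 6 closest to its own number), so the numbers do not pair the samples. Leaving out single libraries gave 93 to 509, and leaving out both Control_Rosa26KO 2 and HFD_Rosa26KO 6 gave 490. Without a run of library names, which leaves 4 against 4, 92, 5 and 19 genes passed. The 5, listed after their values were seen, were Ces2a, Epb41l5, Fam107b, Gabbr2 and Rps4l. The share of falls among calls was 70.4%, against 59.1% in the 12-library fit (268 higher, 387 lower) and 50.9% in voom (1484 and 1539). It was 58.9% without Control_Rosa26KO 2 (209 and 300) and 56.5% without both libraries (213 and 277). At the other end it was 79.6% without Control_Rosa26KO 4 (19 and 74) and 80.0% without the middle run. The last share rests on 5 genes (1 and 4). The cause of these shifts was not tested.

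For p53KO (405) the counts were 785 with the block, 633 with the run term, 107 in the 13-library fit, 907 in DESeq2, 2184 in voom, 173 to 757 with single libraries left out and 15, 33 and 135 without runs. The interaction, which needs both genotypes, gave 0 in each edgeR and voom fit that held them and 5 in DESeq2. Of the 68 called genes named with a fold change, 0 changed sign in the settings run. The 4 libraries of a run set the precision of within-run values, and genes below 1 CPM rest on few counts.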
